A study of Mus musculus with 12 samples.

Results

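Keratins, desmosome proteins and the proteins of the cornified envelope were described here as 1 group of 39 genes among the 18926 genes measured in mouse gastric cancer tumorspheres, of which 13983 were protein-coding. The members were all protein-coding genes whose symbol is a numbered keratin (*Krt*), desmoglein (*Dsg*), desmocollin (*Dsc*), plakophilin (*Pkp*) or small proline-rich protein (*Sprr*), together with *Dsp*, *Jup*, *Ppl*, *Evpl*, *Ivl*, *Tgm1*, *Cysrt1* and *Perp*. The rule reads symbols and gene type only, but it was set with earlier results of these data known. By role they were 7 simple-epithelial keratins, 2 basal keratins, 8 suprabasal and stress keratins, 1 hair keratin, 2 desmosomal cadherins, 7 desmosomal plaque and membrane proteins and 12 cornified envelope genes. The same rule names 88 genes in the RefSeq table of GRCm38.p6, and the other 49, among them *Krt5*, *Krt17*, *Krt1*, *Krt6a*, *Dsg3* and *Dsc3*, were not analysed here. The deposited tables listed no count of 0, so every member had reads in all 12 libraries, as every listed gene did. All 39 passed the filter on low counts.

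Keratins are the intermediate filament proteins of epithelia: type I and type II chains pair, simple glandular epithelia use the pair KRT8 and KRT18 with KRT19 and KRT7, and stratified squamous epithelia use KRT5 and KRT14 in the basal layer and other pairs above it. Desmosomes tie these filaments to the cell border, where desmogleins and desmocollins bridge neighbouring cells and plakoglobin, plakophilins and desmoplakin connect them to keratin. In squamous cells that differentiate terminally, transglutaminases crosslink involucrin, envoplakin, periplakin and SPRR proteins into a cornified envelope; the mouse stomach holds both kinds of epithelium, a squamous forestomach and a glandular part.

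The cells were S1, a mouse gastric cancer line from a tumour of a mouse with the conditional alleles *Cdh1* F/+, *Trp53* F/F and *Smad4* F/F, grown as tumorspheres in serum-free medium with EGF, B-27 and N-2 on low-attachment plates, although the labels name the cell type as monolayer. All cells, controls included, carried Cas9, and each group was a pool of lentivirally transduced, antibiotic-selected cells rather than 1 clone. There were 4 groups of 3 libraries: control, *Rasa1*-KO (loss of a RAS GTPase-activating protein), *Nf2*-KO (loss of merlin, an upstream part of the Hippo pathway) and double-KO. The names of the deposited tables exchange *Rasa1*-KO and double-KO, and *Nf2* mRNA went against the labels and with the table names: *Nf2* averaged 58.2 ± 2.82 CPM (counts scaled to library size; SD, n = 3) for control, 11.9 ± 0.253 under the *Rasa1*-KO label, 13.6 ± 0.631 for *Nf2*-KO and 58.9 ± 3.30 under the double-KO label, and *Rasa1* averaged 71.3 ± 9.54, 31.9 ± 2.27, 98.5 ± 2.21 and 20.5 ± 2.8 CPM in the same order. *Nf2* was thus at control level under the double-KO label (0.02 ± 0.09, adjusted p = 0.934) and 4.9-fold lower under the *Rasa1*-KO label (adjusted p = 2.90e-08), while *Rasa1* was lower than control under both labels. These groups are therefore called labelled *Rasa1*-KO and labelled double-KO throughout, and if the table names are right, as the *Nf2* values point, every value and direction given for one belongs to the other.

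Libraries are named by the number in their titles, unnumbered, 1 and 2 for control and labelled *Rasa1*-KO and 1, 2 and 3 for *Nf2*-KO and labelled double-KO, and values are listed in that order. Total counts were between 43818139 and 96674463 per library. Control unnumbered and labelled double-KO 1, both without a number in the table names, stood apart from the others of their groups, so counts of members are also given without both. No gene of the tables was at 0, but the markers of glandular stomach were low: *Muc5ac* was at 0.118 to 7.4 CPM, *Cldn18* at 0.113 to 0.511, *Tff1* at 0.117 to 2.37 and *Tff2* at 0.0850 to 0.954. *Epcam* and *Cdh1* were higher and differed between groups. *Epcam* was at 62.1 to 68.1 CPM in control, 21.7 to 22.6 in labelled *Rasa1*-KO, 9.97 to 10.7 for *Nf2*-KO and 23.6 to 42.7 in labelled double-KO. *Cdh1* was at 374 to 546, 148 to 175, 98.3 to 123 and 342 to 455 CPM in the same order. *Krt8* and *Krt18*, of the same marker list, are given below. The part of *Epcam* and *Cdh1* in the results was not tested. *Trp63*, the defining factor of squamous epithelium, was at 0.487 to 1.79 CPM in all libraries. Of the fibroblast and smooth muscle markers all 8 of 8 were measured, and their summed level moved with the groups, at 75.4 to 927 CPM in control, 2477 to 2614 in labelled *Rasa1*-KO, 6993 to 7587 for *Nf2*-KO and 125 to 291 in labelled double-KO, most of it *Col3a1*. By gene, *Col1a1*, *Col1a2*, *Col3a1*, *Pdgfra* and *Pdgfrb* were highest in *Nf2*-KO. *Acta2* was highest in labelled double-KO (8.42 to 17.2 CPM, against 2.25 to 3.48 in *Nf2*-KO). *Dcn* was highest in control 1 and 2 (73.6 and 76.9 CPM, against 33.9 to 38.4 in *Nf2*-KO), and *Des* was at or below 0.575 CPM. The part of these markers in the results below was not tested. Of 5 leukocyte markers 2 were measured. *Ptprc* was at 0.11 to 0.572 CPM and *Cd68*, a lysosomal protein of macrophages, at 5.52 to 22.4, and their sum was 5.67 to 8.73 CPM in control, 20 to 22.7 under the *Rasa1*-KO label, 14.3 to 15.1 in *Nf2*-KO and 7.22 to 16.3 under the double-KO label, which was likewise not tested as a part of the results. The 2 of 4 endothelial markers measured, *Pecam1* and *Kdr*, summed to 0.552 to 1.53 CPM over the libraries. In bulk RNA, fewer cells with a transcript and less of it per cell cannot be told apart.

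Members were called where edgeR's quasi-likelihood test, adjusted by Benjamini-Hochberg over the 18053 genes tested, gave a p under 0.05. Over the 4 groups, 30 of the 39 members differed, against 46.3% of all genes. In labelled *Rasa1*-KO against control, 13 members were higher (19.7% of all genes were) and 10 lower (22.2% of all genes). In *Nf2*-KO against control, 8 members were higher (20.6% of all genes) and 17 lower (22.2% of all genes). In labelled double-KO against control, 15 members were higher (4.0% of all genes) and 1, *Perp*, lower (2.46% of all genes). As shares of the 39 members these are 33.3% and 25.6%, 20.5% and 43.6%, and 38.5% and 2.56%. The median member differed from control by 0.35 on the log2 scale in labelled *Rasa1*-KO, -0.21 for *Nf2*-KO and 0.63 in labelled double-KO, where the median over all genes was -0.08, -0.07 and -0.04. These 3 comparisons share the control libraries. Without both libraries that stood apart, calls rose over all genes too. Then 15 members were higher (32.5% of all genes) and 17 lower (33.4%) in labelled *Rasa1*-KO, 12 higher (33.0%) and 21 lower (33.9%) in *Nf2*-KO, and 22 higher (17.1%) and 2 lower (12.8%) in labelled double-KO. An edgeR fit of labelled double-KO and control alone called 0 members (0.102% of all genes). Over all 12 libraries DESeq2 called 18 (11.5% of all genes) and limma on log2(FPKM + 1) 14 (7.89%).

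**Figure D1:**
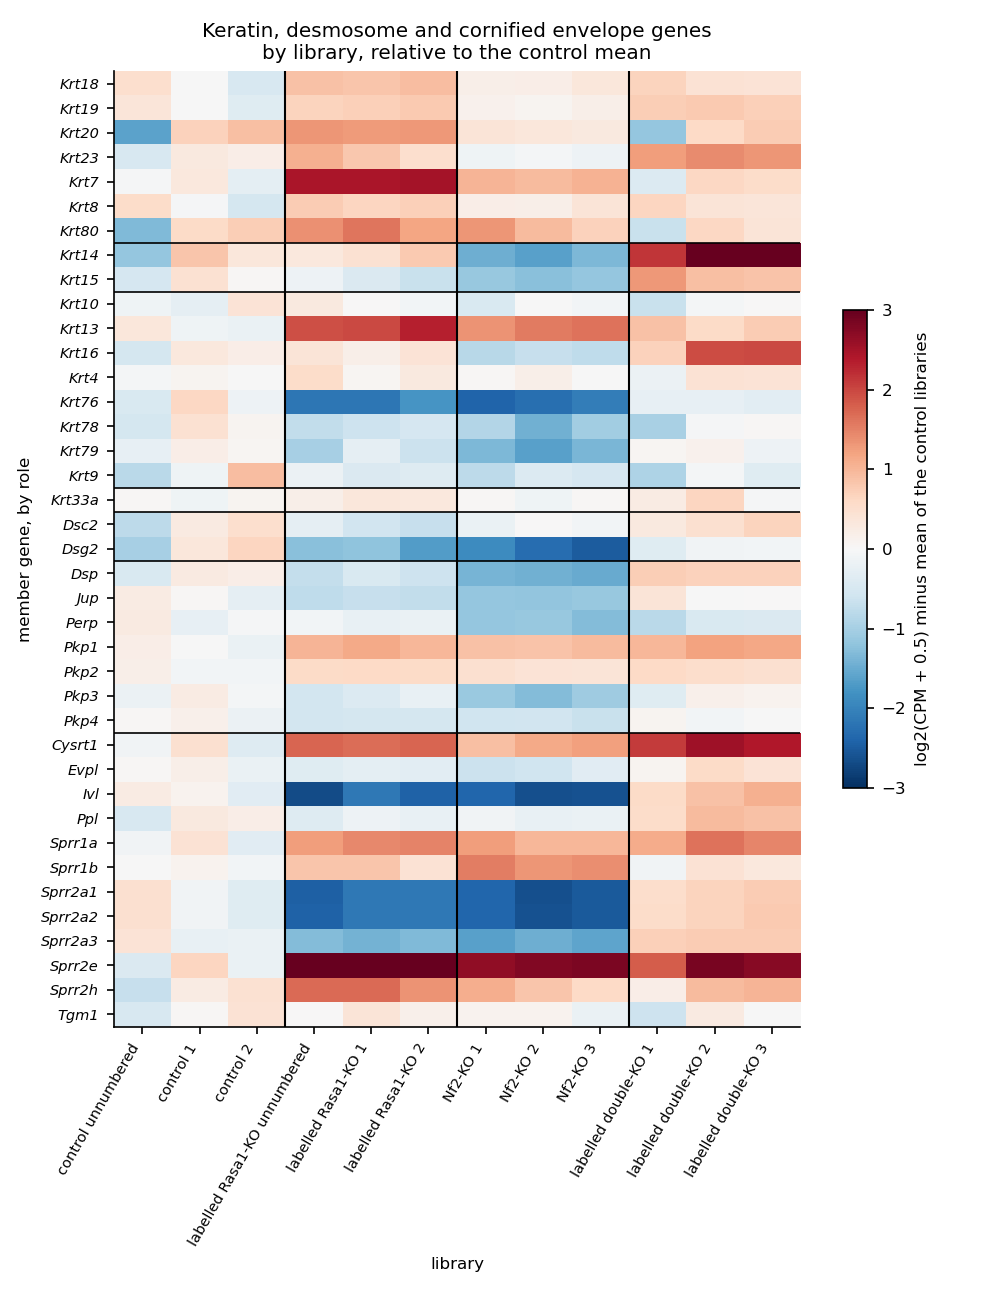
Each row is a member and each column a library, coloured by log2(CPM + 0.5) minus the mean of the 3 control libraries, with values past 3 in either direction shown at the end of the scale; horizontal lines part the roles. *Ivl*, the *Sprr2a* genes and *Krt76* are deep blue in the 6 libraries labelled *Rasa1*-KO or *Nf2*-KO and not in those labelled double-KO, *Krt14* is reddest in those labelled double-KO, and *Sprr2e* and *Cysrt1* are red in all 9 knockout libraries.

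Levels per length, in FPKM as deposited, set the simple-epithelial keratins far above the rest. *Krt8*, the type II chain of simple epithelium, had group means of 1184 ± 378 FPKM (SD, n = 3) in control, 1718 ± 41.2 in labelled *Rasa1*-KO, 1309 ± 76 for *Nf2*-KO and 1469 ± 146 in labelled double-KO. Its partner *Krt18* was between 589 and 1339 FPKM, and *Krt19*, the type I keratin of glandular ducts, between 555 and 1064. *Krt7* and *Sprr1a* followed, at 27.6 to 209.7 and 45.8 to 157 FPKM. All other members were below 60 FPKM in every library, *Jup* being highest among them at 59.5. Of the basal and suprabasal keratins only *Krt14* passed 6 FPKM, in the libraries labelled double-KO (8.59, 17.3 and 17.8 FPKM). The squamous keratins were thus minor beside *Krt8* and *Krt18* in every group.

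**Figure D2:**
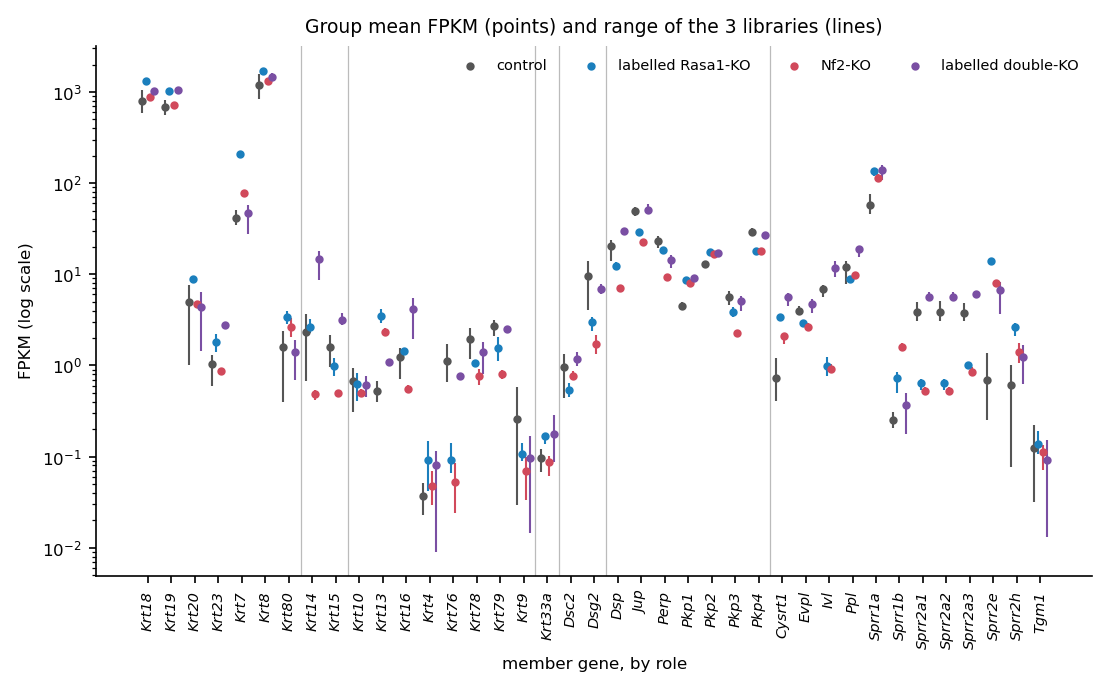
Points are group means in FPKM on a log axis and lines the range of the 3 libraries, by role from simple-epithelial keratins (left) to the cornified envelope (right). *Krt8*, *Krt18* and *Krt19* lie between 555 and 1758 FPKM in all libraries, above every other member.

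Simple-epithelial keratins rose in labelled *Rasa1*-KO, where 5 of 7 were called higher (19.7% of all genes) and none lower (22.2%). In *Nf2*-KO 1 of 7, *Krt7*, was higher (20.6% of all genes). In labelled double-KO 2 of 7, *Krt19* and *Krt23*, were higher (4.0% of all genes). *Krt7*, a type II keratin of ductal and glandular epithelia, changed most. *Krt7* was at 66, 84 and 54.6 CPM in control, 371, 371 and 382 CPM under the *Rasa1*-KO label, 136, 129 and 139 CPM in *Nf2*-KO and 50.2, 103 and 98.3 CPM under the double-KO label. All 3 libraries labelled *Rasa1*-KO were above all others, *Nf2*-KO was above control, and labelled double-KO overlapped control. The log2 fold change against control was 2.46 ± 0.24, adjusted p = 1.59e-05 (5.49-fold) in labelled *Rasa1*-KO, 0.98 ± 0.23, adjusted p = 0.00522 for *Nf2*-KO and 0.30 ± 0.23, adjusted p = 0.496 in labelled double-KO. *Krt18* rose in labelled *Rasa1*-KO by 0.83 ± 0.20, adjusted p = 0.0061, and *Krt19* by 0.70 ± 0.15, adjusted p = 0.00397. *Krt19* also rose in labelled double-KO (0.72 ± 0.15, adjusted p = 0.0179), and in *Nf2*-KO it was at 0.11 ± 0.15. *Krt23*, a type I keratin, rose in labelled *Rasa1*-KO (0.95 ± 0.26, adjusted p = 0.0131) and in labelled double-KO (1.53 ± 0.26, adjusted p = 0.00575). The rise of *Krt19* in labelled double-KO was lost without labelled double-KO 2 or 3 (0.57 to 0.92 over the 12 libraries left out in turn), and that of *Krt23* in labelled *Rasa1*-KO was lost without labelled *Rasa1*-KO unnumbered (0.68 to 1.14 over the 12 libraries left out in turn). *Krt18* was at 0.45 ± 0.20 in labelled double-KO (adjusted p = 0.209), and past the threshold with the table-name replicate number as a block (0.50, adjusted p = 0.0408).

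*Krt8* rose in labelled *Rasa1*-KO by 0.64 ± 0.22, adjusted p = 0.0335, a call lost without control 1 or 2, labelled *Rasa1*-KO unnumbered, 1 or 2 or labelled double-KO 3 (0.42 to 0.96 over the 12 libraries left out in turn). Within control, *Krt8* was at 3154, 2115 and 1503 CPM, so control unnumbered was within the range of those labelled double-KO (2758 to 3391 CPM). *Krt20*, a keratin of mature gut epithelium, was at 2.19, 12.8 and 14.9 CPM in control and 3.19, 11.9 and 13.4 CPM in labelled double-KO: in both groups the library without a number in the table names was the low one. It was not called against control in any group over all 12 libraries, with 0.00 ± 0.58, adjusted p = 1.00 in *Nf2*-KO. Without both of those libraries it was called in *Nf2*-KO (-0.48, adjusted p = 8.22e-04, lower) and in labelled *Rasa1*-KO (0.51, adjusted p = 5.23e-04, higher).

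The basal keratins fell in *Nf2*-KO (2 of 2, against 22.2% of all genes) and rose in labelled double-KO (2 of 2, against 4.0%). Neither was called in labelled *Rasa1*-KO (19.7% of all genes higher and 22.2% lower). *Krt14*, the type I keratin of the squamous basal layer, whose usual partner *Krt5* was not analysed here, differed most. *Krt14* was at 1.2, 6.29 and 4.35 CPM in control, 4.29, 4.77 and 6.06 CPM under the *Rasa1*-KO label, 0.882, 0.741 and 1.01 CPM in *Nf2*-KO and 16.3, 33 and 31.9 CPM under the double-KO label. All 3 libraries labelled double-KO were above and all 3 of *Nf2*-KO below every other library, while labelled *Rasa1*-KO lay within the control range. The log2 fold change was -2.16 ± 0.49, adjusted p = 0.00426 in *Nf2*-KO (4.47-fold lower), 2.78 ± 0.48, adjusted p = 0.00566 in labelled double-KO (6.89-fold higher) and 0.36 ± 0.46, adjusted p = 0.547 in labelled *Rasa1*-KO. *Krt14* shares 2.78% of the 100-base words of its transcripts with *Krt16*. *Krt15* marks basal cells and hair follicle stem cells. *Krt15* was at 1.8, 3.91 and 2.84 CPM in control, 2.39, 1.91 and 1.53 CPM under the *Rasa1*-KO label, 0.976, 0.855 and 0.952 CPM in *Nf2*-KO and 7.52, 5.5 and 5.32 CPM under the double-KO label. Again *Nf2*-KO was lowest and labelled double-KO highest, with no overlap with any other group. *Krt15* fell in *Nf2*-KO by 1.61 on the log2 scale (SE 0.29, adjusted p = 8.78e-04), rose in labelled double-KO by 1.11 ± 0.28, adjusted p = 0.0364, a call lost without each of 8 of the 12 libraries, all but control unnumbered and 1 and labelled *Rasa1*-KO unnumbered and 2 (0.86 to 1.42), and was at -0.55 ± 0.28 in labelled *Rasa1*-KO (adjusted p = 0.133). *Trp63* was not called in any of these comparisons (adjusted p = 0.152, 0.298 and 0.552).

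Single suprabasal and stress keratins moved in both directions. In labelled *Rasa1*-KO, 1 of 8 was higher (19.7% of all genes) and 2 lower (22.2%), which is near the shares of all genes. In *Nf2*-KO 1 was higher (20.6% of all genes) and 4 lower (22.2%). In labelled double-KO 2 were higher (4.0% of all genes) and none lower (2.46%). *Krt13* is the type I keratin of the upper layers of oesophagus and forestomach. *Krt13* was at 1.17, 0.708 and 0.655 CPM in control, 4.58, 4.77 and 6.13 CPM under the *Rasa1*-KO label, 2.88, 3.41 and 3.62 CPM in *Nf2*-KO and 1.95, 1.49 and 1.76 CPM under the double-KO label. The order was labelled *Rasa1*-KO, *Nf2*-KO, labelled double-KO and control, and no group overlapped its neighbour. *Krt13* rose by 2.60 ± 0.25, adjusted p = 1.44e-05 in labelled *Rasa1*-KO (6.05-fold), 1.95 ± 0.25, adjusted p = 7.23e-05 for *Nf2*-KO and 1.02 ± 0.24, adjusted p = 0.030 in labelled double-KO, a call lost without each of 9 of the 12 libraries, all but control unnumbered, labelled *Rasa1*-KO 2 and *Nf2*-KO 1 (0.89 to 1.34). Its partner *Krt4* stayed at or below 0.364 CPM in all 12 libraries.

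*Krt76*, a type II keratin of the suprabasal layers of the oral mucosa, went the other way. *Krt76* was at 1.69, 4.17 and 2.22 CPM in control, 0.176, 0.17 and 0.385 CPM under the *Rasa1*-KO label, 0.0706, 0.137 and 0.221 CPM in *Nf2*-KO and 2.04, 2.05 and 1.94 CPM under the double-KO label. The libraries labelled *Rasa1*-KO and *Nf2*-KO overlapped each other and were all below control, and those labelled double-KO overlapped control. It fell by 3.46 on the log2 scale in labelled *Rasa1*-KO (SE 0.47, adjusted p = 1.57e-04, 11-fold lower) and by 4.22 in *Nf2*-KO (SE 0.49, adjusted p = 3.86e-05, 18.7-fold lower), and was at -0.42 ± 0.41, adjusted p = 0.612 in labelled double-KO. These falls rest on few reads, since the lowest library held 6 counts. *Krt16*, a stress keratin of wounded epidermis, rose in labelled double-KO (1.84 ± 0.36, adjusted p = 0.0114), a call lost without labelled double-KO 2 (1.57 to 2.17 over the 12 libraries left out in turn). It fell in *Nf2*-KO by 1.08 (SE 0.36, adjusted p = 0.0324), a call lost without control 1 or 2 or *Nf2*-KO 1, 2 or 3 (-1.35 to -0.88 over the 12 libraries left out in turn), and 24.3% of its 100-base words are found in other genes, most of them in the gene model *Gm11597*. *Krt79* fell in *Nf2*-KO (-1.67 ± 0.23, adjusted p = 1.20e-04) and in labelled *Rasa1*-KO (-0.69 ± 0.22, adjusted p = 0.0257), the second call being lost without control 1 or 2 or labelled *Rasa1*-KO unnumbered or 2 (-0.92 to -0.51 over the 12 libraries left out in turn). *Krt78* fell in *Nf2*-KO (-1.25 ± 0.31, adjusted p = 0.00742). The remaining keratins, *Krt4*, *Krt9*, *Krt10*, *Krt80* and the hair keratin *Krt33a*, were not called in any pairwise comparison.

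**Figure D3:**
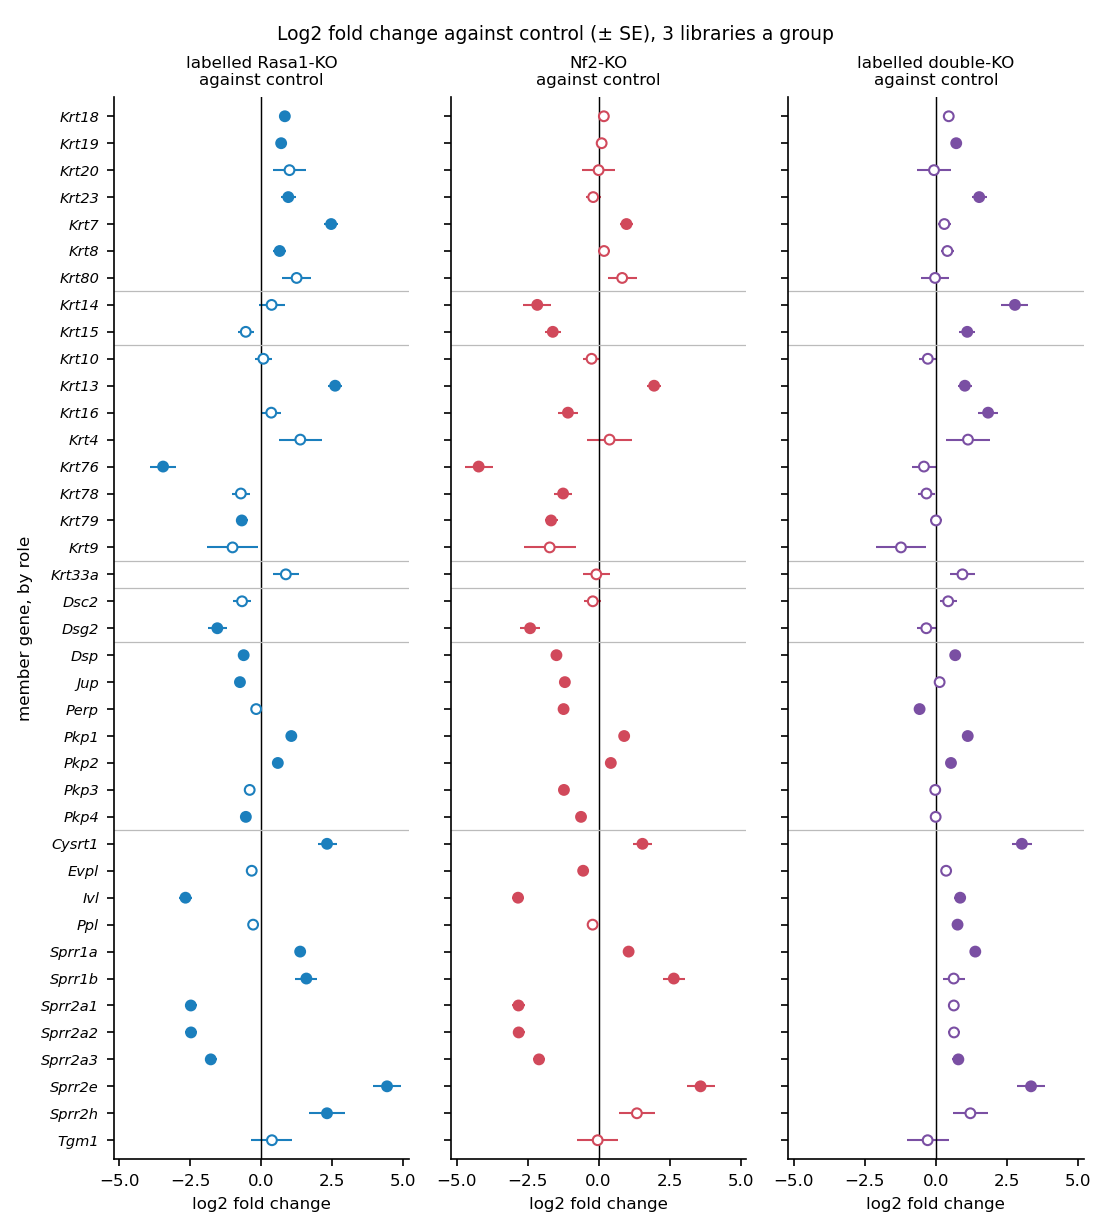
Log2 fold change against control with its standard error for each member, in labelled *Rasa1*-KO (left), *Nf2*-KO (middle) and labelled double-KO (right); filled points have an adjusted p under 0.05. Most desmosomal members lie left of 0 in *Nf2*-KO, and the fold changes of *Krt14*, *Ivl* and the *Sprr2a* genes change side between *Nf2*-KO and labelled double-KO.

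Most desmosomal genes fell in *Nf2*-KO, 1 of 2 cadherins and 5 of 7 plaque and membrane genes (22.2% of all genes). There 2 plaque genes rose (20.6% of all genes). In labelled *Rasa1*-KO 1 cadherin and 3 plaque genes fell (22.2% of all genes) and 2 plaque genes rose (19.7%). In labelled double-KO 1 fell (2.46% of all genes) and 3 rose (4.0%). The sum of the fibroblast and smooth muscle markers, most of it *Col3a1*, was highest in *Nf2*-KO, up to 7587 CPM. *Acta2* and *Dcn* were not highest there, and the part of these markers in the falls was not tested. *Dsg2*, the desmoglein of simple epithelia, was at 25.7, 65.1 and 80.9 CPM in control, 21.1, 21.8 and 15.7 in labelled *Rasa1*-KO, 13.5, 10.1 and 8.65 for *Nf2*-KO and 39.8, 47.7 and 48.4 in labelled double-KO. The control libraries spread widely, and all libraries labelled *Rasa1*-KO or *Nf2*-KO lay below them. *Dsg2* fell in *Nf2*-KO by 2.41 on the log2 scale (SE 0.35, adjusted p = 1.84e-04, 5.32-fold lower) and in labelled *Rasa1*-KO by 1.55 (SE 0.33, adjusted p = 0.00345), and was at -0.34 ± 0.33, adjusted p = 0.608 in labelled double-KO. *Dsc2*, its desmocollin partner, was not called against control (-0.68 ± 0.31, -0.20 ± 0.30 and 0.43 ± 0.30 in labelled *Rasa1*-KO, *Nf2*-KO and labelled double-KO). Without both libraries that stood apart it was called lower in labelled *Rasa1*-KO (-1.01, adjusted p = 1.88e-04) and in *Nf2*-KO (-0.53, adjusted p = 0.0125).

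*Dsp* encodes desmoplakin, which ties the desmosome to keratin filaments. *Dsp* was at 137, 224 and 213 CPM in control, 114, 137 and 122 CPM under the *Rasa1*-KO label, 70.8, 68.7 and 65.6 CPM in *Nf2*-KO and 314, 302 and 304 CPM under the double-KO label. *Nf2*-KO was below and labelled double-KO above every other library, and labelled *Rasa1*-KO overlapped control unnumbered. *Dsp* fell in *Nf2*-KO by 1.48 on the log2 scale (SE 0.16, adjusted p = 2.07e-05, 2.8-fold lower) and in labelled *Rasa1*-KO by 0.62 (SE 0.16, adjusted p = 0.00825). In labelled double-KO it rose by 0.68 ± 0.16, adjusted p = 0.0251, a call lost without labelled double-KO 1, 2 or 3 (0.49 to 0.83 over the 12 libraries left out in turn).

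*Jup* encodes plakoglobin, the catenin of the plaque. *Jup* was at 292, 253 and 205 CPM in control, 145, 153 and 147 CPM under the *Rasa1*-KO label, 109.9, 108 and 112 CPM in *Nf2*-KO and 326, 247 and 250.3 CPM under the double-KO label. Control and labelled double-KO overlapped, labelled *Rasa1*-KO lay below both and *Nf2*-KO below all. The log2 fold change was -0.75 ± 0.14, adjusted p = 0.00126 in labelled *Rasa1*-KO, -1.19 ± 0.14, adjusted p = 4.14e-05 for *Nf2*-KO and 0.13 ± 0.14, adjusted p = 0.635 in labelled double-KO. *Perp*, a membrane protein of desmosomes, was at 18.1 to 20.3 CPM in *Nf2*-KO and 38.2 to 54.7 CPM in control, a fall of 1.23 (SE 0.14, adjusted p = 3.83e-05). In labelled double-KO *Perp* was the 1 member called lower than control (-0.57 ± 0.14, adjusted p = 0.035), a call lost without each of 9 of the 12 libraries, all but control unnumbered, 1 and 2 (-0.67 to -0.42).

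The plakophilins, armadillo proteins that cluster desmosomal cadherins, divided. *Pkp1*, best known from the upper layers of epidermis, was higher in all knockout groups. *Pkp1* was at 25.3, 21.8 and 18.9 CPM in control, 44.6, 48.5 and 43.9 CPM under the *Rasa1*-KO label, 40.7, 40.0 and 42.5 CPM in *Nf2*-KO and 43.8, 50.7 and 49.3 CPM under the double-KO label. All 9 knockout libraries were above the control libraries, with labelled *Rasa1*-KO and labelled double-KO overlapping. *Pkp1* rose by 1.05 ± 0.12, adjusted p = 3.40e-05 in labelled *Rasa1*-KO, 0.90 ± 0.12, adjusted p = 7.86e-05 for *Nf2*-KO and 1.12 ± 0.12, adjusted p = 3.50e-04 in labelled double-KO. *Pkp2*, the plakophilin of simple epithelia and heart, rose less (0.58 ± 0.09, adjusted p = 5.40e-04, 0.43 ± 0.09, adjusted p = 0.00334 and 0.53 ± 0.09, adjusted p = 0.00645 in the same order), and its 9 knockout libraries, at 51.1 to 59.0 CPM, were all above control. *Pkp3* fell in *Nf2*-KO (-1.22 ± 0.17, adjusted p = 1.62e-04), and in labelled *Rasa1*-KO was at -0.41 ± 0.17, adjusted p = 0.0705. *Pkp4*, a relative found mostly at adherens junctions, fell in *Nf2*-KO (-0.62 ± 0.10, adjusted p = 3.39e-04) and in labelled *Rasa1*-KO (-0.55 ± 0.10, adjusted p = 9.61e-04), and was at -0.01 ± 0.10 in labelled double-KO.

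**Figure D4:**
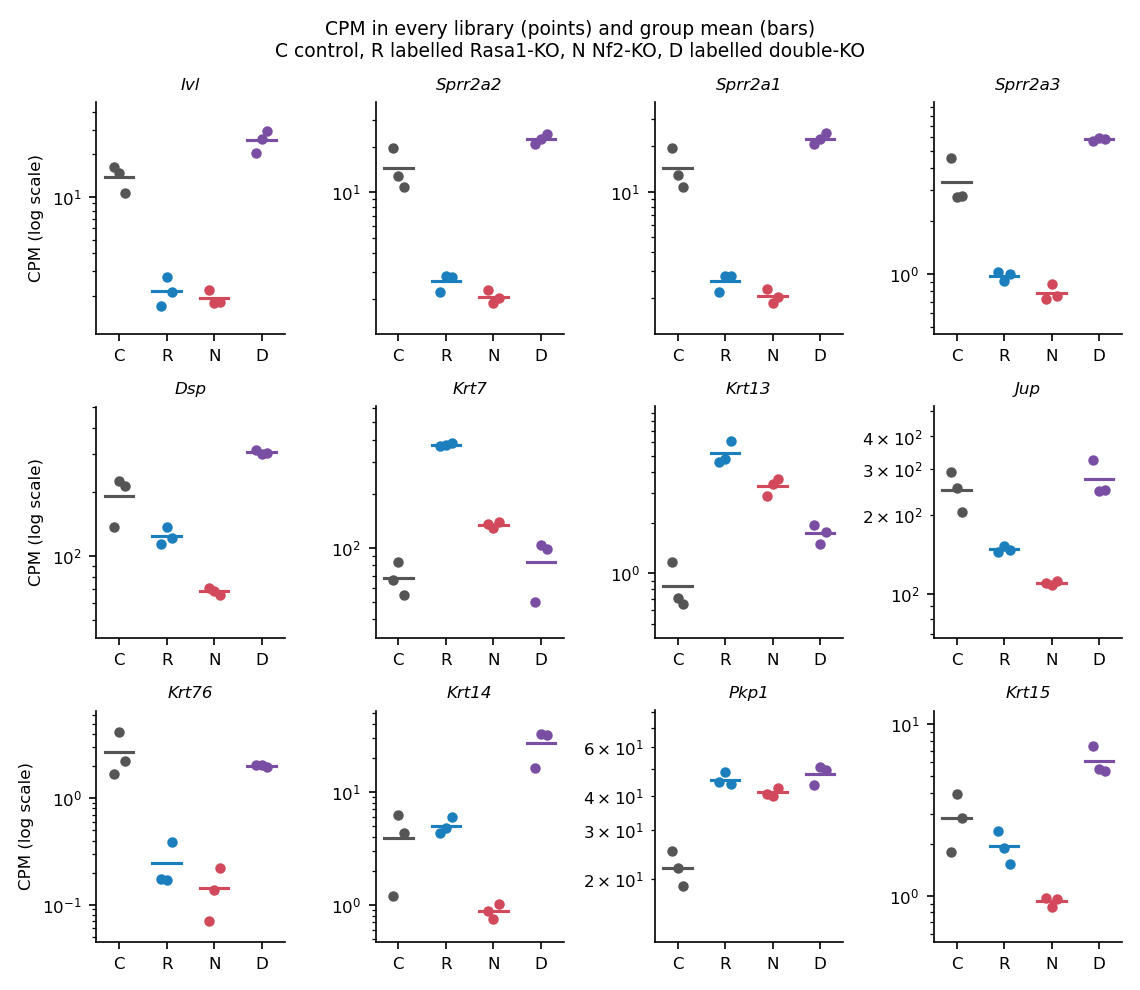
CPM on a log axis in every library (points) with group means (bars) for the 12 named members with the smallest adjusted p over the 4 groups. *Ivl*, *Sprr2a1*, *Sprr2a2*, *Sprr2a3* and *Krt76* share low values in the groups R (labelled *Rasa1*-KO) and N (*Nf2*-KO), *Krt7* is highest in R, and *Dsp*, *Krt14* and *Krt15* are highest in D (labelled double-KO) and lowest in N.

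Among the 12 cornified envelope genes, 5 rose (19.7% of all genes) and 4 fell (22.2%) in labelled *Rasa1*-KO. In *Nf2*-KO 4 rose (20.6% of all genes) and 5 fell (22.2%). In labelled double-KO 6 rose (4.0% of all genes) and none fell (2.46%). Members that rose and members that fell stand side by side in the *Sprr* cluster of chromosome 3, part of the epidermal differentiation complex, where the 7 *Sprr* members and *Ivl* start within 355 kb in the order *Sprr2a1*, *Sprr2a2*, *Sprr2a3*, *Sprr2e*, *Sprr2h*, *Sprr1b*, *Sprr1a* and *Ivl*. The promoters of 5 of them are printed, from 2 genes that fell in labelled *Rasa1*-KO (*Sprr2a1*, *Ivl*) and 3 neighbours that rose there (*Sprr2e*, *Sprr2h*, *Sprr1a*), so that the sequences can be read beside the opposite changes. They are the RefSeq sequences of GRCm38.p6, from 250 bases before to 50 after an annotated start, read 5′ to 3′ on the strand of the gene, with matches to the AP-1 motif TGANTCA in capitals. AP-1 is the transcription factor downstream of RAS and ERK signalling.
Sprr2a1 (chr3:92215585-92215884, plus strand): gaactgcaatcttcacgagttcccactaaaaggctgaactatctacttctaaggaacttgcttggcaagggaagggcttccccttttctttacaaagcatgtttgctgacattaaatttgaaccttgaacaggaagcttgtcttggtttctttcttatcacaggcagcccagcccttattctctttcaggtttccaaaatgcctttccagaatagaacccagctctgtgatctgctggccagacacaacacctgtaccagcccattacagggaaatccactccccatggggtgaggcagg
Sprr2e (chr3:92351893-92352192, plus strand): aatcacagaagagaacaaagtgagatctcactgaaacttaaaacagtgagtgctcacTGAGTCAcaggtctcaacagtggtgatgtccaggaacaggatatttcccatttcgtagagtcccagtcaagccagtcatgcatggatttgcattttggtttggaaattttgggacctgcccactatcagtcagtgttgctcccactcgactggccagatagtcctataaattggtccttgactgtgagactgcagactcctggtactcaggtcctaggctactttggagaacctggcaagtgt
Sprr2h (chr3:92385435-92385734, plus strand): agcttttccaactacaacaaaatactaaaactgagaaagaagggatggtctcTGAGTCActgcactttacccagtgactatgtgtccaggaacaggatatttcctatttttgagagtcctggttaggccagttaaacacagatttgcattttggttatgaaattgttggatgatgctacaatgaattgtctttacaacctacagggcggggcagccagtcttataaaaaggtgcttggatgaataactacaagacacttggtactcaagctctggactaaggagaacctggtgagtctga
Sprr1a (chr3:92485832-92486131, minus strand): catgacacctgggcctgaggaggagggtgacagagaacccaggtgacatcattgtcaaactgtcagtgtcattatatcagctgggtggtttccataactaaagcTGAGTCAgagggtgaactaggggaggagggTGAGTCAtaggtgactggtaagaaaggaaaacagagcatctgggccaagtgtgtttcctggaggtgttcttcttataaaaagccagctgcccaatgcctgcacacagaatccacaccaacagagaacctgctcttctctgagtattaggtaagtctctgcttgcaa
Ivl (chr3:92573686-92573985, minus strand): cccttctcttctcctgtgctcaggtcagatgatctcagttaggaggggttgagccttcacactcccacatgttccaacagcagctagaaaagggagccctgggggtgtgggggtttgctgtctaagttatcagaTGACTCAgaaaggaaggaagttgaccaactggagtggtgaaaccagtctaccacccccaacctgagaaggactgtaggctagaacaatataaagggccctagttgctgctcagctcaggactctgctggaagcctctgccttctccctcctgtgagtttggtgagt
*Sprr2e*, *Sprr2h* and *Ivl* hold 1 AP-1 match each and *Sprr1a* 2, and the window of *Sprr2a1* holds none. The TEAD motif GGAATG, bound by the partners of YAP, is in none of these 5 windows, so the 2 motifs overlap in none of them. Among the cluster windows not printed, that of *Sprr1b*, which also rose, holds 1 AP-1 and 1 TEAD match. Those of *Sprr2a2* and *Sprr2a3* hold neither. Both motifs were searched on both strands, and of all 32851 promoters of this length 7.81% hold the first and 14.7% the second. Over the 28 promoters found for 25 of the 39 members, 8 hold an AP-1 match and 6 a TEAD match. A match is a string of letters and not a measured binding site. The *Sprr2a2* promoter has the same 300 bases as that of *Sprr2a1*, *Sprr2a3* shares a run of 272 of them, and *Sprr2e* and *Sprr2a1* share no run over 9.

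*Sprr2a1* and *Sprr2a2* cannot be measured apart: 88.9% of the 100-base words of the *Sprr2a1* transcripts are also in *Sprr2a2*, and their counts were nearly the same in every library, such as 1844 and 1848 in control unnumbered. *Sprr2a1* was at 19.6, 12.9 and 10.8 CPM in control, 2.17, 2.8 and 2.78 CPM under the *Rasa1*-KO label, 2.28, 1.84 and 2.02 CPM in *Nf2*-KO and 20.6, 22.4 and 24.3 CPM under the double-KO label. *Sprr2a2* was at 10.8 to 19.6 CPM in control, 2.21 to 2.8 in labelled *Rasa1*-KO, 1.86 to 2.27 for *Nf2*-KO and 20.7 to 24.4 in labelled double-KO. The 6 libraries labelled *Rasa1*-KO or *Nf2*-KO lay far below control, and those labelled double-KO above it. The log2 fold change of *Sprr2a1* was -2.48 ± 0.21, adjusted p = 5.96e-06 in labelled *Rasa1*-KO (5.59-fold lower), -2.82 ± 0.22, adjusted p = 1.67e-06 in *Nf2*-KO (7.07-fold lower) and 0.63 ± 0.20, adjusted p = 0.0885 in labelled double-KO. The replicate block by table-name numbers set the copies in labelled double-KO on either side of the threshold (*Sprr2a1* 0.67, adjusted p = 0.0528, and *Sprr2a2* 0.68, adjusted p = 0.0486), and both were called without both libraries that stood apart (0.97, adjusted p = 5.16e-04, and 0.99, adjusted p = 3.93e-04). *Sprr2a3* shares 36.2% of its words with the other 2 genes. *Sprr2a3* was at 4.56, 2.75 and 2.8 CPM in control, 1.03, 0.913 and 1.0 CPM under the *Rasa1*-KO label, 0.729, 0.878 and 0.755 CPM in *Nf2*-KO and 5.74, 5.93 and 5.88 CPM under the double-KO label. Labelled double-KO was again above control and the other knockout groups below it, here with labelled *Rasa1*-KO above *Nf2*-KO. It fell by 1.78 in labelled *Rasa1*-KO (SE 0.22, adjusted p = 7.10e-05) and by 2.1 in *Nf2*-KO (SE 0.22, adjusted p = 1.66e-05). Its rise in labelled double-KO (0.79 ± 0.21, adjusted p = 0.0428) was lost without each of 11 of the 12 libraries, all but control unnumbered (0.69 to 1.08).

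*Sprr2e* rose. It shares 1.09% of its words with another gene, and was at 0.181, 0.939 and 0.298 CPM in control, 10.2, 9.94 and 10.4 in labelled *Rasa1*-KO, 5.29, 5.79 and 6.02 for *Nf2*-KO and 2.72, 6.14 and 5.66 in labelled double-KO. All 9 knockout libraries were above all controls, by 4.42 ± 0.51, adjusted p = 4.53e-05 (21.5-fold), 3.59 ± 0.49, adjusted p = 1.35e-04 (12-fold) and 3.35 ± 0.49, adjusted p = 0.00226 (10.2-fold) in that order of groups. *Sprr2h* was called in labelled *Rasa1*-KO (2.31 ± 0.63, adjusted p = 0.0123), and was at 1.35 ± 0.62, adjusted p = 0.10 in *Nf2*-KO and 1.22 ± 0.62, adjusted p = 0.291 in labelled double-KO, past the threshold there with the table-name replicate number as a block (1.45, adjusted p = 0.0283). Its lowest library, a control, held 6 counts. *Sprr1a*, the most abundant *Sprr* gene, was at 35.9 to 62.3 CPM in control and 91.5 to 143 CPM in the 9 knockout libraries, and rose by 1.37 ± 0.20, adjusted p = 2.48e-04, 1.06 ± 0.20, adjusted p = 0.00118 and 1.39 ± 0.20, adjusted p = 0.0020 in labelled *Rasa1*-KO, *Nf2*-KO and labelled double-KO. *Sprr1b* was rare, at 0.175 to 1.59 CPM, and highest in *Nf2*-KO (2.65 ± 0.39, adjusted p = 2.13e-04); it also rose in labelled *Rasa1*-KO (1.58 ± 0.38, adjusted p = 0.0066), and was at 0.63 ± 0.39 in labelled double-KO. With the 5 *Sprr2* members summed before the fit, the sum was lower in labelled *Rasa1*-KO (-0.84 ± 0.17, adjusted p = 0.00229) and in *Nf2*-KO (-1.50 ± 0.17, adjusted p = 3.37e-05) and higher in labelled double-KO (0.77 ± 0.17, adjusted p = 0.0192). In labelled *Rasa1*-KO and *Nf2*-KO the sum and *Sprr2e* thus have opposite signs.

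**Figure D5:**
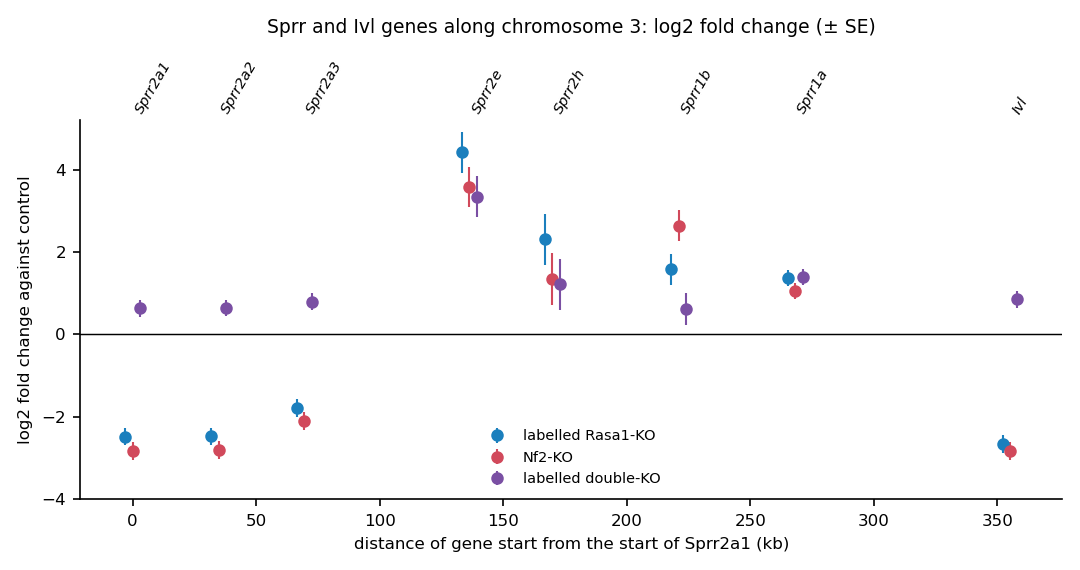
Log2 fold change against control with its standard error (vertical axis) for the 8 members of the chromosome 3 cluster, by the distance of their start from that of *Sprr2a1* in kb (horizontal axis; points of a gene are set slightly apart). In labelled *Rasa1*-KO and *Nf2*-KO the outer genes *Sprr2a1*, *Sprr2a2*, *Sprr2a3* and *Ivl* lie between -2.84 and -1.78 and the inner genes between 1.06 and 4.42, while in labelled double-KO all 8 lie between 0.63 and 3.35.

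*Ivl* encodes involucrin, an early scaffold of the envelope. *Ivl* was at 16.2, 14.8 and 10.6 CPM in control, 1.71, 2.7 and 2.12 CPM under the *Rasa1*-KO label, 2.21, 1.79 and 1.82 CPM in *Nf2*-KO and 20.6, 25.7 and 29.1 CPM under the double-KO label. The libraries labelled *Rasa1*-KO and *Nf2*-KO overlapped each other, all below control, and those labelled double-KO were all above it. *Ivl* fell by 2.67 on the log2 scale in labelled *Rasa1*-KO (SE 0.22, adjusted p = 4.30e-06, 6.37-fold lower) and by 2.84 in *Nf2*-KO (SE 0.22, adjusted p = 1.82e-06, 7.14-fold lower). It rose in labelled double-KO by 0.86 ± 0.20, adjusted p = 0.0291, a call lost without control 1 or 2, labelled *Rasa1*-KO 2 or labelled double-KO 2 or 3 (0.71 to 0.98 over the 12 libraries left out in turn). The groups with low *Ivl* and *Sprr2a* genes were those with at least 2477 CPM of summed fibroblast and smooth muscle markers, mostly *Col3a1*. The part of these markers was not tested. The 4-group test gave *Ivl* the smallest adjusted p of the members, 2.95e-07.

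The plakins *Ppl* (periplakin) and *Evpl* (envoplakin), which line the envelope from within, moved less. *Ppl* rose in labelled double-KO (0.76 ± 0.18, adjusted p = 0.028, a call lost without labelled double-KO 2 or 3 (0.56 to 0.92 over the 12 libraries left out in turn)), and was at -0.29 ± 0.18 and -0.21 ± 0.18 in labelled *Rasa1*-KO and *Nf2*-KO. Without both libraries that stood apart it was called lower in both (-0.50, adjusted p = 1.55e-04 and -0.42, adjusted p = 5.87e-04). *Evpl* fell in *Nf2*-KO (-0.54 ± 0.15, adjusted p = 0.0104). *Cysrt1* rose in all 3 knockout groups, from 0.317 to 0.994 CPM in control to 2.9 to 3.08 in labelled *Rasa1*-KO, 1.48 to 1.99 for *Nf2*-KO and 4.08 to 5.66 in labelled double-KO (2.31 ± 0.33, adjusted p = 2.47e-04, 1.54 ± 0.33, adjusted p = 0.00295 and 3.03 ± 0.34, adjusted p = 6.02e-04). *Tgm1*, the membrane-bound crosslinking enzyme, was at or below 0.635 CPM in every library and was not called, at 0.37 ± 0.72, -0.03 ± 0.73 and -0.29 ± 0.74.

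Leaving out both libraries that stood apart lost no call of a named member against control, and it added calls to those given with their values above. The further members that edgeR called lower in labelled *Rasa1*-KO were *Krt15* (-0.80), *Evpl* (-0.32), *Pkp3* (-0.50) and *Krt78* (-0.96), as log2 fold changes. In *Nf2*-KO *Sprr2h* (0.80), *Krt18* (0.47), *Krt19* (0.31) and *Krt8* (0.51) were called higher. In labelled double-KO *Evpl* (0.51), *Sprr2h* (0.99), *Krt18* (0.66), *Krt7* (0.54) and *Krt8* (0.63) were called higher and *Dsg2* (-0.60) lower.

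Other genes of the same structures were read from lists chosen with earlier results known. Of 9 hemidesmosome and basement membrane anchor genes, 2 were higher (19.7% of all genes) and 3 lower (22.2%) in labelled *Rasa1*-KO. In *Nf2*-KO 1 was higher (20.6% of all genes) and 2 lower (22.2%), and none was called in labelled double-KO (4.0% and 2.46%). *Lamb3*, a chain of laminin-332, fell (-1.44 ± 0.27, adjusted p = 0.00135 in labelled *Rasa1*-KO and -2.94 ± 0.28, adjusted p = 8.99e-06 in *Nf2*-KO), as did the integrin *Itgb4* (-1.38 ± 0.32, adjusted p = 0.00502 and -1.60 ± 0.32, adjusted p = 0.00194). Of 22 further cornification genes 10 were measured, of which 1 was higher (19.7% of all genes) and 2 lower (22.2%) in labelled *Rasa1*-KO. In *Nf2*-KO 2 were higher (20.6% of all genes) and 4 lower (22.2%), and none was called in labelled double-KO (4.0% and 2.46%). The transglutaminase *Tgm5* fell (-2.54 ± 0.42, adjusted p = 5.90e-04 and -3.74 ± 0.45, adjusted p = 4.78e-05), as did *Sbsn* (-1.18 ± 0.15, adjusted p = 1.11e-04 and -1.13 ± 0.15, adjusted p = 1.19e-04), and *Cdsn*, corneodesmosin, rose (1.83 ± 0.49, adjusted p = 0.0119 and 2.94 ± 0.51, adjusted p = 7.20e-04). In *Nf2*-KO *Scel* (sciellin, -2.03 ± 0.19, adjusted p = 7.56e-06) and *Dmkn* (-2.28 ± 0.36, adjusted p = 3.72e-04) fell.

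Of 19 epithelial and squamous transcription factors 14 were measured. In *Nf2*-KO 6 fell (22.2% of all genes) and none rose (20.6% of all genes). Among those that fell were *Elf3* (-1.58 ± 0.21, adjusted p = 1.01e-04), *Ehf* (-1.35 ± 0.19, adjusted p = 1.59e-04), *Grhl3* (-1.18 ± 0.18, adjusted p = 2.53e-04), *Grhl1* (-0.97 ± 0.21, adjusted p = 0.00351) and *Esrp2* (-0.67 ± 0.15, adjusted p = 0.00381), the last a splicing factor of epithelial cells. In labelled *Rasa1*-KO *Grhl3*, a driver of epidermal barrier formation, fell (-1.35 ± 0.18, adjusted p = 1.29e-04), as did *Ehf* (-1.01 ± 0.19, adjusted p = 0.00136), and *Prdm1* rose (2.02 ± 0.73, adjusted p = 0.0423). In labelled double-KO *Grhl3* rose (0.65 ± 0.17, adjusted p = 0.0459). Among 8 measured intermediate filament genes other than keratins, *Vim*, the filament of mesenchymal cells, rose in all 3 groups (2.15 ± 0.13, adjusted p = 4.16e-07, 2.20 ± 0.13, adjusted p = 2.18e-07 and 0.95 ± 0.12, adjusted p = 0.00121 in labelled *Rasa1*-KO, *Nf2*-KO and labelled double-KO). *Nes* rose in *Nf2*-KO (2.76 ± 0.19, adjusted p = 6.75e-07) and labelled *Rasa1*-KO (1.04 ± 0.18, adjusted p = 8.33e-04), and *Synm* fell in both (-1.88 ± 0.11, adjusted p = 1.80e-07 and -1.77 ± 0.10, adjusted p = 4.16e-07).

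Knockout groups were also compared with each other, where control libraries enter only the estimate of the spread. Between labelled *Rasa1*-KO and *Nf2*-KO, 7 members were higher in labelled *Rasa1*-KO (1.92% of all genes) and none lower (1.74% of all genes). The 7 were *Krt7* (1.48 ± 0.23, adjusted p = 0.00589), *Krt14* (2.52 ± 0.49, adjusted p = 0.0166), *Krt23* (1.14 ± 0.26), *Krt79* (0.98 ± 0.22), *Dsp* (0.86 ± 0.16), *Pkp3* (0.81 ± 0.17) and *Perp* (1.05 ± 0.14, adjusted p = 0.00252), and only *Krt7* and *Perp* of the 7 kept the call with each library left out in turn. DESeq2 called 11 higher (3.76% of all genes) and 1 lower (4.55%). No cornified envelope gene was called between these groups, with *Ivl* at 0.16 ± 0.21 and *Sprr2a1* at 0.34 ± 0.21.

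In labelled double-KO against *Nf2*-KO, 21 members were higher (16.9% of all genes) and 3 lower (15.3% of all genes), the 3 being *Krt7*, *Krt13* and *Sprr1b*. *Krt7* was at -0.68 ± 0.23, adjusted p = 0.0403, a call lost without each of 7 of the 12 libraries, all but control unnumbered, 1 and 2 and labelled double-KO 2 and 3 (-0.86 to -0.42). *Krt14* differed most (4.94 ± 0.53, adjusted p = 3.72e-05, 30.8-fold), then *Krt76* (3.8 ± 0.49, adjusted p = 1.24e-04), *Ivl* (3.69 ± 0.23, adjusted p = 6.20e-07) and *Sprr2a1* (3.45 ± 0.22, adjusted p = 7.68e-07). Among desmosomal genes *Dsp* was higher by 2.17 ± 0.16, adjusted p = 2.62e-06 and *Dsg2* by 2.07 ± 0.34, adjusted p = 7.18e-04. In labelled double-KO against labelled *Rasa1*-KO, 16 were higher (16.3% of all genes) and 2 lower (14.0% of all genes), these being *Krt7* (-2.16 ± 0.24, adjusted p = 6.94e-05) and *Krt13* (-1.58 ± 0.24, adjusted p = 6.00e-04). *Ivl* (3.53 ± 0.23, adjusted p = 1.49e-06), *Sprr2a1* (3.12 ± 0.22, adjusted p = 2.83e-06) and *Krt76* (3.04 ± 0.46, adjusted p = 6.18e-04) were higher by over 8-fold. *Krt14* was higher by 2.42 ± 0.47, adjusted p = 0.00273, *Dsp* by 1.30 ± 0.16, adjusted p = 1.40e-04 and *Jup* by 0.89 ± 0.14, adjusted p = 7.27e-04. If the table names hold, this last comparison has the opposite sign and sets *Rasa1*-KO above double-KO.

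Whether both losses together differ from the sum of the single ones on the log2 scale was tested as labelled double-KO minus labelled *Rasa1*-KO minus *Nf2*-KO plus control. By the labels, 19 members departed upward (27.4% of all genes) and 9 downward (24.9% of all genes). With the labels exchanged as in the table names, 1 member departed upward (2.69% of all genes) and 4 downward (3.72% of all genes). These 5 were *Perp* (1.62 ± 0.20, adjusted p = 9.94e-04), *Pkp1* (-0.97 ± 0.16, adjusted p = 0.00496), *Cysrt1* (-2.26 ± 0.45, adjusted p = 0.0121), *Sprr2e* (-2.52 ± 0.63, adjusted p = 0.0368) and *Sprr1a* (-1.08 ± 0.28, adjusted p = 0.0388). *Ivl*, which departed by 6.36 ± 0.32, adjusted p = 3.90e-08 under the labels, was at -0.69 ± 0.30 (adjusted p = 0.219) with them exchanged. How these genes combine therefore depends on the labels, and the *Nf2* mRNA, higher under the double-KO label than under the *Rasa1*-KO label by 2.31 ± 0.09, adjusted p = 4.01e-08, goes with the exchanged ones.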

How the data were processed

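RNA of S1 tumorspheres was sequenced by the authors after ribosomal RNA depletion with a stranded total RNA kit. Trimming used Trimmomatic 0.38, alignment to mm10 used HISAT2 2.1.0, and RefSeq genes were quantified in StringTie 2.1.3b. The authors deposited raw read counts per gene, used for the main tests, and FPKM, which correct for gene length and library depth. The deposited tables also hold TPM and log2 values of the authors, which were not used. How reads shared between *Sprr2a* copies were assigned is not given in the sources used here.

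Groups followed the genotype labels. Tests on counts ran in edgeR 4.0.16 under R 4.3.3 (filterByExpr, TMM, 1 quasi-likelihood fit over 12 libraries, 18053 genes), and SE is the log2 fold change divided by the root of its F statistic. The median SE in *Nf2*-KO against control was 0.214. The edgeR step was tried on simulated counts, drawn for each library independently from control means, without libraries that stood apart. Of 198 genes changed 4-fold in *Nf2*-KO it recovered 161, and it called 13 others. In labelled *Rasa1*-KO, where none was changed, it called none. The simulation thus does not cover the shared deviations of the real libraries. Each pair of libraries of a group differed beyond counting noise (median chi-square of a gene 2.4 to 44.4), and the study's legend calls the replicates technical, so p-values measure the spread between these libraries. An exact permutation test of 3 against 3 libraries cannot give a p under 0.1 and was not used. By the table names, control and labelled double-KO libraries with the same number correlated in their deviations from the group means (r = 0.626, 0.313 and 0.444). The deviations are from means of 3 libraries, so these 3 values depend on each other and are not separate signs of pairing. Between other groups r by the table names was -0.0552 to 0.174.

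Alternatives were RLE size factors, DESeq2 1.42.0, no filter, only the groups compared, the replicate number as a block, a fold of 3 with raw p under 0.05, limma 3.58.1 on log2(FPKM + 1) and log2(FPKM + 0.1), each library left out, both libraries that stood apart left out, and the *Sprr2* genes summed. The fold of 3 with raw p follows the authors' own rule. Members with a mean CPM of at least 1 and a pairwise call were named, with a set list of keratins, desmosome and envelope genes and all *Sprr* genes, and the 12 of them with the smallest 4-group p are given in every library. Members and lists were chosen with earlier results of these data known, and some genes of the lists are not reported here. Shared words of 100 bases were counted in GENCODE vM21 transcripts. Figures were drawn with matplotlib 3.10.9.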

Additional observations from a re-analysis of the deposited data

Results flagged for a closer look

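Under the labels, the edgeR test of the departure from additivity called 28 of the 39 members. Of these 19 departed upward (27.4% of all genes) and 9 downward (24.9% of all genes). The departure is labelled double-KO minus labelled *Rasa1*-KO minus *Nf2*-KO plus control, in log2 units. It was upward in *Krt76* 7.26, *Ivl* 6.36, *Sprr2a1* 5.94, *Sprr2a2* 5.93, *Sprr2a3* 4.67, *Krt14* 4.58, *Dsg2* 3.62 and *Krt15* 3.27. It was upward by less in *Dsp* 2.79, *Krt16* 2.57, *Krt79* 2.37, *Jup* 2.08, *Krt78* 1.64, *Pkp3* 1.61, *Dsc2* 1.32, *Ppl* 1.27, *Evpl* 1.25, *Pkp4* 1.16 and *Perp* 0.84. It was downward in *Sprr2e* -4.66, *Sprr1b* -3.60, *Krt13* -3.53, *Krt7* -3.14, *Sprr2h* -2.44, *Krt80* -2.10, *Sprr1a* -1.03, *Pkp1* -0.83 and *Pkp2* -0.48. The call for *Dsc2* was lost without control 1 or 2, labelled *Rasa1*-KO 2, *Nf2*-KO 1 or labelled double-KO 3 (1.06 to 1.64 over the 12 libraries left out in turn). That for *Sprr2h* was lost without labelled *Rasa1*-KO unnumbered or 1, *Nf2*-KO 1 or 2 or labelled double-KO 1 (-2.93 to -1.90 over the 12 libraries left out in turn). With the labels of *Rasa1*-KO and double-KO exchanged, 5 members were called, 1 upward (2.69% of all genes) and 4 downward (3.72% of all genes). The *Nf2* mRNA, at control level under the double-KO label, goes with the exchanged labels.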

How the results depend on the processing

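The counts of members called in labelled *Rasa1*-KO and *Nf2*-KO against control and in labelled double-KO against *Nf2*-KO stayed within 1.5 times under every alternative except a fold of 3 with raw p, which left 10, 12 and 13 (4 in labelled double-KO against control, 8 in labelled double-KO against labelled *Rasa1*-KO and 1 in labelled *Rasa1*-KO against *Nf2*-KO). Labelled double-KO against control, 16 by the main design, fell to 0 with only the compared groups fitted and to 6 with the replicate block by title numbers, was 19 with the replicate block by table-name numbers, and ran from 7 (without labelled double-KO 2, and 8 without labelled double-KO 3) to 21 with 1 library left out. Labelled *Rasa1*-KO against *Nf2*-KO, 7 by the main design, became 12 with DESeq2, 23 with only the compared groups, 13 with the replicate block by table-name numbers and 22 without both libraries that stood apart, and ran from 2 to 15 with 1 library left out (15 without control unnumbered, 2 without labelled *Rasa1*-KO 1 or any *Nf2*-KO library, 3 without labelled *Rasa1*-KO 2). Without both libraries that stood apart labelled double-KO against labelled *Rasa1*-KO had 29. With the labels exchanged the departure from additivity had 5 (2.69% of all genes upward, 3.72% downward). Calls over all genes moved with the fit too. In labelled double-KO against control they were 0.102% with only the compared groups and 11.5% with DESeq2. In labelled *Rasa1*-KO against *Nf2*-KO DESeq2 gave 3.76% higher and 4.55% lower. Shares for most other alternatives are not given, so these counts are not read as results about the members.

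Of the named genes, *Krt20* reversed without both libraries that stood apart, to -0.48 in *Nf2*-KO against control and 0.35 in labelled double-KO against *Nf2*-KO. The causes were not tested. RLE size factors changed no call of a named gene. Replicate numbers in the titles gave r between -0.379 and 0.399, the lowest and the highest both between control and labelled double-KO. Neither numbering settles whether libraries are paired. Of the named members, the block by table-name numbers lost no call in labelled double-KO against control. Transcripts near 1 CPM or below, such as *Krt76* and *Sprr1b*, are limited by few counts.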
